A study of Mus musculus with 6 samples.

Results

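Stefin-high mature neutrophils of liver macrometastasis were 1417 cells of the 10415 cells sequenced at that stage, and of 23008 cells in all 6 libraries of the study. They were chosen by thresholds on the deposited scaled values, in which 0 is the mean of a gene over both libraries of a stage. A cell was a member if the mean of Csf3r, Cxcr2, G0s2, Hdc and Il1r2 was above 0.4, that of Fcnb, Ltf and Cebpe below 0.5, and that of Stfa1, Stfa2, Stfa3 and Cstdc6 above 0.5. All 12 genes were in the matrix. Mature neutrophils that missed only the last threshold, 1692 cells, are called stefin-low.

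CD45+ immune cells were sorted from a piece of liver of Balb/c mice injected into the heart with 4T07 mouse mammary tumor cells, which carried either a scrambled hairpin (Ctrl) or a hairpin against Tim3 (Tim3-KD). The knockdown was in the tumor cells, so the sorted cells hold no check of it. Cells were taken at day 12 (macrometastasis) and at day 3 (micrometastasis, and adjacent liver). Each of the 6 groups was 1 library from a pool of 2 mice, so no difference between groups has a replicate check, no test was made, and differences between mice, libraries and conditions cannot be told apart. Intervals are 95% intervals, exact unless another method is named, and cover counting error only.

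Neutrophils mature in the bone marrow in steps, filling first azurophil, then specific, then gelatinase granules, and leave for blood and tissue when mature. Stefins of the A type are small cytosolic inhibitors of cysteine cathepsins. The mouse has a cluster of such genes with very similar sequences, several of which are known as transcripts of neutrophils and their precursors. The 11 genes of the cluster looked up here lie on chromosome 16 (GRCm38, 36119946 to 36455392), over 335 kb, and 8 of them were measured in macrometastasis.

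Promoters of the stefin genes are shown first because the measured genes of the cluster were high in the same cells. For Stfa1, Stfa2, Stfa3 and Cstdc6 this follows from the rule, which chose cells on them. The other copies are so similar that reads may be split between them. The sequences are the 100 bases before the annotated start, 5′ to 3′ on the gene's strand, from RefSeq (GRCm38.p6). Capitals mark the longest run of bases shared by 6 of the windows, ACCTTTAAAACCC, and the longest other run shared by 5, AGAGGAGGAG, which does not overlap it.
Stfa1, chr16:36277048-36277147, plus strand: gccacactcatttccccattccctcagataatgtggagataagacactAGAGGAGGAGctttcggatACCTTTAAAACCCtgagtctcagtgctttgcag
Stfa2, chr16:36408364-36408463, minus strand: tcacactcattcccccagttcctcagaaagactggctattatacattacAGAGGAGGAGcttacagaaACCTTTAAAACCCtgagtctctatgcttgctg
Stfa3, chr16:36455393-36455492, minus strand: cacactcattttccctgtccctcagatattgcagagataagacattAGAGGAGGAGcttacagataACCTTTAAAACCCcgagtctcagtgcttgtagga
Stfa2l1, chr16:36156711-36156810, plus strand: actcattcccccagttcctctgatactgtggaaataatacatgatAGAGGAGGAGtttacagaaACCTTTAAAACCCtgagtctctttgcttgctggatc
Cstdc4, chr16:36184112-36184211, plus strand: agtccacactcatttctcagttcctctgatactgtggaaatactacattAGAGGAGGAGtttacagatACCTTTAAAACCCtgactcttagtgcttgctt
Csta3, chr16:36210303-36210402, plus strand: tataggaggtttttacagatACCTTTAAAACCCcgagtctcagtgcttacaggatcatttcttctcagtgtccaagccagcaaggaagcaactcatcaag

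The longer run began 32 to 36 bases before the start in 5 of these genes and 80 bases before it in Csta3. On either strand it was in 9 of 32851 promoters of 300 bases (0.0274%), of which 8 belong to the cluster. AGAGGAGGAG was in 1.03% of all promoters, and both runs together were in 7 promoters. Csta2, the remaining measured gene with an entry, held neither run in its 300 bases. Neither was in the promoters of 7 granule and surface genes described below (Ngp, Cd177, Ifitm6, Ly6g, Camp, Lcn2 and Anxa1). A match describes letters, not a binding site.

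Ctrl macrometastasis held 623 members among 4913 cells, 12.7% (11.8 to 13.6, Clopper-Pearson). The Tim3-KD library held 794 among 5502 cells, 14.4% (13.5 to 15.4). The difference was 1.75 percentage points (Newcombe 95% interval 0.432 to 3.06). Mature neutrophils as a whole were 27.8% of the Ctrl and 31.7% of the Tim3-KD cells. Among them the stefin-high share was 45.6% in both libraries, with a difference of -0.054 points (-3.58 to 3.47). The interval for the difference in the share of members included 0 under some settings. At a stefin threshold of 0.7 the difference was 0.976 points (-0.265 to 2.21). Without cells with markers of other cell types it was 2.24 points (-2.82 to 7.21), with shares of 28.2% and 30.4%. Without cells with those of these markers at 10 UMIs or fewer in 1e+06 it was 0.473 points (-2.28 to 3.20), with shares of 29.3% and 29.8%. Both marker settings also take cells of other types out of the total, so they give a different share. The interval for the split of mature neutrophils into stefin-high and stefin-low includes 0. The same thresholds, set on values scaled within each stage, took 48.4% of mature neutrophils of the Ctrl and 62.4% of the Tim3-KD micrometastasis library, and 38.7% in adjacent Ctrl. The adjacent Tim3-KD library had 1 such cell among 542 and is not described further.

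Members held a median of 6522 UMIs in Ctrl and 6438 in Tim3-KD, against 4865 and 4800 for stefin-low cells. Their totals ran from 2164 to 57321 UMIs. The stefin score had no gap at the threshold: 83 Ctrl and 111 Tim3-KD mature cells lay between 0.4 and 0.6. The lowest scores inside were 0.501 in both libraries and the highest outside were 0.4997 in Ctrl and 0.4992 in Tim3-KD. Pairs of libraries shared 0 to 11 cell barcodes, and 1 barcode was a member in Tim3-KD macrometastasis and also a cell of the rule in Tim3-KD micrometastasis.

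The stefin genes that chose the cells are given as a description. Values are UPM, the UMIs of a gene scaled to 1e+06 UMIs of the same cells, a 3′ tag measure that is not divided by gene length. Stfa2 was at 3113 UPM in Ctrl members and 3182 in Tim3-KD members, against 359 and 377 in stefin-low cells. Stfa3 was at 2335 and 1852 UPM in members and at 81.3 and 60.1 in stefin-low cells. Cstdc6 was at 344 and 404 UPM in members, and Stfa1, the least abundant, at 71.1 and 69.3. In both libraries each of these genes was over 8-fold higher in members, from 8.43-fold for Stfa2 in Tim3-KD to 30.8-fold for Stfa3 in Tim3-KD. A member held a median of 30 UMIs of these 4 genes in Ctrl (quartiles 15.5 and 62, highest 392) and 28 in Tim3-KD. A stefin-low cell held a median of 1. These UMIs are not scaled for depth.

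The measured stefin genes that the rule did not use were also high in the same cells. Stfa2l1 was at 2905 UPM in Ctrl and 3152 in Tim3-KD members, and at 1058 and 1321 in stefin-low cells. Cstdc4 was at 2727 and 2930 UPM in members, and at 630 and 828 in stefin-low cells. Csta2 was at 138 and 218 UPM in members against 31.6 and 58.7, and Csta3 at 76.2 and 81.7 against 21.3 and 29.0. All 4 were past 2-fold in both libraries, with ratios from 2.39 for Stfa2l1 in Tim3-KD to 4.35 for Csta2 in Ctrl. Because the copies are so similar, reads may be split between them, and a further feature of Csta2 and Cstdc4 jointly was at 922 and 1014 UPM in members. Across single mature neutrophils, Spearman's rho of the share of UMIs from Cstdc4 with that from the 4 rule genes was 0.61 in 1366 Ctrl and 0.57 in 1743 Tim3-KD cells. It was 0.59 and 0.55 for Stfa2l1, 0.42 and 0.45 for Csta2, and 0.27 and 0.28 for Csta3, which was no higher than for Ngp (0.31 and 0.28). These cells share libraries and a range of depths, so rho is given without a p.

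**Figure D1:**
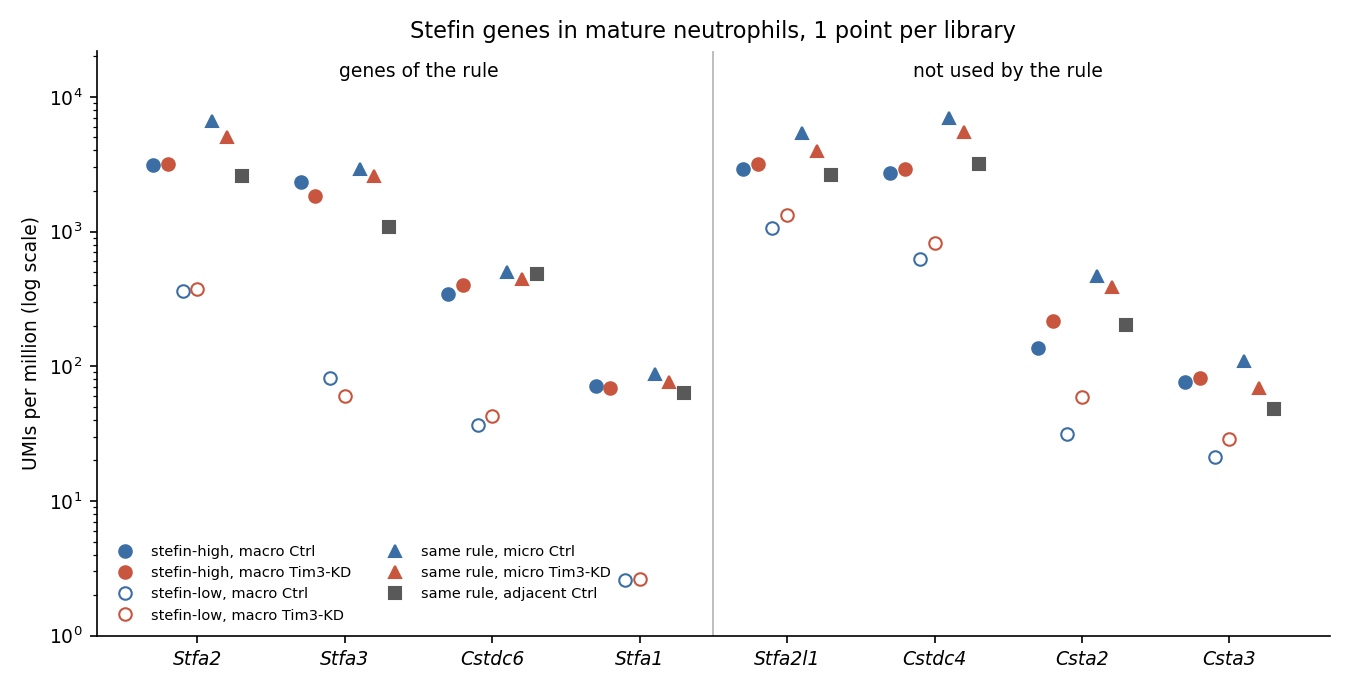
UPM (log scale) of 8 stefin genes in stefin-high (filled) and stefin-low (open) mature neutrophils of macrometastasis and in cells of the same rule of micrometastasis and adjacent liver, 1 point per library. Filled circles lie above open ones for all 8 genes, and the micrometastasis cells held more Stfa2 and Cstdc4 than the members.

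The difference in Stfa2l1, which the rule did not use, was also seen at equal depth. After every cell was thinned to 1500 UMIs, which left out no cell, Stfa2l1 was seen in 89.6% of Ctrl and 88.5% of Tim3-KD members, and in 58.1% and 64.6% of stefin-low cells. Unthinned shares were 96.6% and 96.7% in members. B cells served as background, with a median of 3804 UMIs in Ctrl and 4410 in Tim3-KD, and 0.476% and 0.352% of them held the transcript after thinning. Stfa3, for which the rule itself sets the gap, was seen in 74.6% and 64.9% of thinned members and in 0.317% and 0.352% of B cells.

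The comparison of stefin-high with stefin-low cells shares its contrast with the rule, so it is a description. Of 1251 genes with 100 or more UMIs summed over both groups in each library, 10 were 2-fold or more higher in members in both libraries (0.799%) and 48 were lower (3.84%). The 10 higher features were the 8 stefin genes, their joint feature, and Ngp. Ngp, a cystatin-related protein of specific granules, was at 2775 UPM in Ctrl and 2454 in Tim3-KD members against 1237 and 1009 in stefin-low cells. The ratio was 2.24 (2.18 to 2.31) and 2.43 (2.36 to 2.504). The next gene in rank was Cd177, a neutrophil surface glycoprotein stored in specific granules, with a ratio of 2.15 in Ctrl and 1.85 in Tim3-KD.

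Of 10 specific granule genes tested, 1 of them (Ltf) a gene of the rule, 9 had a ratio above 1 in both libraries, against 15.7% of all genes, and the list median was 0.84 log2 in Ctrl and 0.56 in Tim3-KD, against -0.19 and -0.15 for all genes. Camp, the cathelicidin precursor, was at 228 and 199 UPM in members and 79.0 and 112 in stefin-low cells. Lcn2, which binds bacterial siderophores, had ratios of 1.43 and 1.49. Of 8 gelatinase granule genes, 6 had a ratio above 1 in both libraries, with medians of 0.36 and 0.44 log2. Anxa1, a calcium-dependent phospholipid-binding protein stored with these granules, was 1.57-fold and 1.60-fold higher. Ly6g, the surface marker of mouse neutrophils, was 1.82-fold and 1.62-fold higher.

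Along the stefin score granule genes were higher in the highest bin than in the lowest, and most were not in order between. Ngp was at 1084 UPM in Ctrl cells scoring below 0 and at 3730 in those above 1.5, and at 745 and 3947 in Tim3-KD. Between these ends the Tim3-KD cells were not in order, with 1467 UPM from 0 to 0.5 and 1028 from 0.5 to 1. Camp was highest in the fourth bin in Ctrl, with 552 UPM, and at 138 in the fifth. Anxa1 went from 1744 to 3432 UPM in Ctrl and from 1509 to 3308 in Tim3-KD, with each bin above the one before in both. Ifitm6, an interferon-induced transmembrane protein family member, was at 685 and 1969 UPM at the ends in Ctrl and at 847 and 2519 in Tim3-KD.

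Other genes were lower at the high end. Ccrl2, an atypical chemoattractant receptor, was at 2140 UPM in the lowest and 1151 in the highest bin in Ctrl, and at 2740 and 1631 in Tim3-KD. Ctsb, encoding the cysteine protease cathepsin B, was at 537 and 197 UPM at the ends in Ctrl and at 498 and 243 in Tim3-KD. Of 5 genes tested of a list of cathepsins and legumain (Lgmn), 4 had a ratio below 1 in both libraries, against 56.4% of all genes. Only Lgmn was past 2-fold lower, a call not kept without cells with monocyte genes. Isg15, an interferon-induced ubiquitin-like protein, was at 388 and 132 UPM in Ctrl and at 593 and 306 in Tim3-KD. Immediate early and stress genes leaned the same way: all 14 tested had a ratio below 1 in both libraries, with medians of -0.52 and -0.46 log2. Klf4, a transcription factor, was past 2-fold, with 26.9 and 12.4 UPM in members against 67.8 and 35.6, and this call was not kept either. Atf3, a stress-induced transcription factor, was at 191 and 274 UPM against 332 and 412. Mt1, a metallothionein that binds zinc, was nearly level along the score, between 1419 and 1719 UPM in Ctrl and between 969 and 1158 in Tim3-KD.

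**Figure D2:**
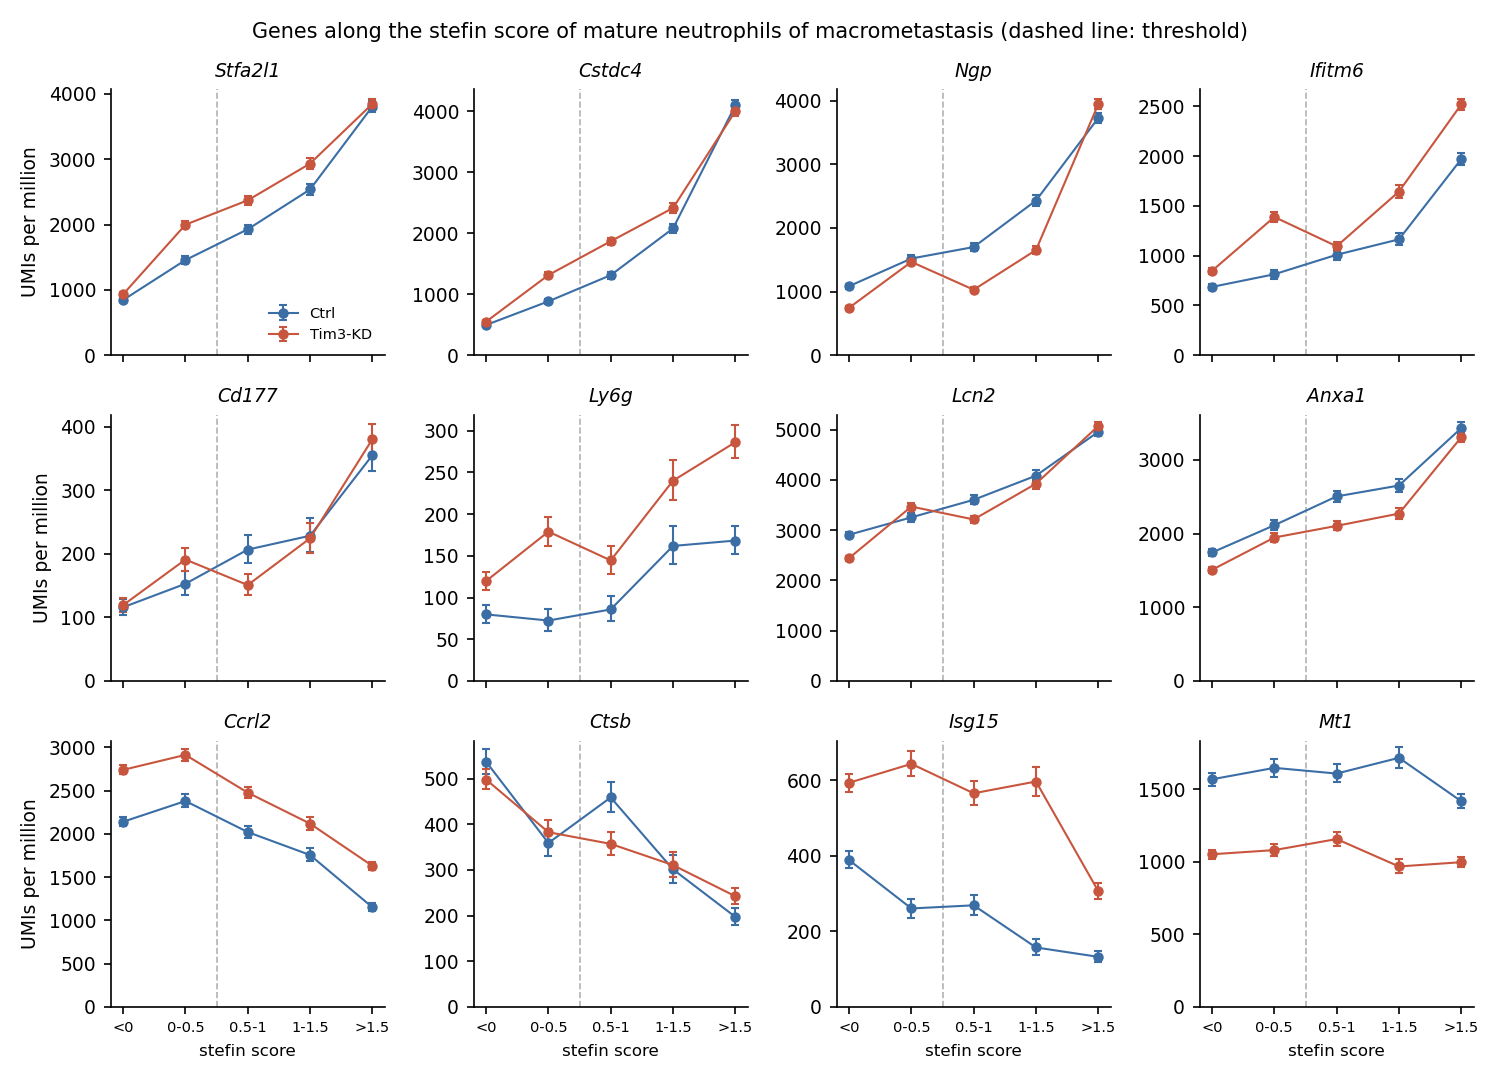
UPM of 12 genes (linear axes from 0) in mature neutrophils of macrometastasis binned by stefin score, in Ctrl (blue) and Tim3-KD (red); bars are exact Poisson 95% intervals and the dashed line is the threshold of the rule. Stefin and granule genes are higher in the last bin than in the first, Ccrl2 and Ctsb are lower, and Mt1 is nearly level.

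Of the genes lower in members, Ccr2, the chemokine receptor of inflammatory monocytes, was at 1.77 and 3.10 UPM in members and at 31.6 and 28.7 in stefin-low cells. Lgals1, encoding galectin 1, was at 7.86 and 5.27 UPM against 191 and 58.0. Ms4a4c, S100a10, Ms4a6d, Irf8, Ms4a6c, S100a4, Ms4a6b and Aif1 completed the 10 lowest. All 10 had under 100 UMIs in members of each library and reached the minimum through the stefin-low cells, so they had to differ. Of 13 monocyte and macrophage markers in the matrix none was at 0 in members, and their summed level was 286 and 192 UPM in members against 657 and 614 in stefin-low cells. Cells with 2 or more UMIs of 7 monocyte genes were 4.33% and 1.89% of members and 7.67% and 4.11% of stefin-low cells. Without these cells 3 genes remained lower, Bst2, Cxcl10 and Lgals1, of 15 of the 48 that still had 100 UMIs, while 9 of the 10 higher features remained, all but Ngp. In cells of 4000 to 10000 UMIs 1 gene was lower.

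Other cell types' markers were detected in most members: 75.3% of Ctrl and 71.8% of Tim3-KD members held 2 or more UMIs of the lists for B, T, NK, Kupffer, endothelial and hepatocyte cells, against 67.3% and 66.8% of stefin-low cells, which are shallower. Summed levels in Ctrl and Tim3-KD members were 303 and 247 UPM for 6 hepatocyte markers, 208 and 195 for 8 markers of Kupffer cells (the resident macrophages of liver), 60.9 and 22.8 for 10 B cell markers, 92.3 and 66.6 for 10 T cell markers, and 13.4 and 1.70 for 7 NK cell markers. The hepatocyte sum was mostly Trf and Alb, the Kupffer sum mostly Slc40a1, and the T cell sum mostly Cd3d. Ms4a1 and Fcmr of the B cell list, Tcf7 of the T cell list, Eomes of the NK list and Flt3 of the dendritic list were at 0 in all members. Elane, Mpo, Prtn3 and Ctsg, transcripts of azurophil granules and of early precursors, were each at 0.393 to 20.5 UPM in members. In stefin-low cells they were at 1.51 to 9.04 UPM in Ctrl and at 424 to 1261 in Tim3-KD, where 8 of 949 cells held 5 or more of these UMIs.

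Among the variable genes in the matrix, 4 of the 15 most abundant transcripts of members were stefins. Lcn2 led with 4317 UPM in Ctrl and 4196 in Tim3-KD, followed by Wfdc21 with 4112 and 3990. Cd14, the coreceptor for endotoxin, was at 3377 and 3070 UPM. Il1r2, the decoy receptor for interleukin 1 and a gene of the rule, was at 2301 and 2038. Stfa2, Stfa2l1, Cstdc4, Stfa3, Anxa1, Ngp, Saa3, G0s2, Ccrl2, Asprv1 and Trem1 made up the rest of the first 15 genes.

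Some of these genes were very uneven from cell to cell. Saa3, encoding an acute-phase apolipoprotein, was at 3709 UPM in Ctrl and 2382 in Tim3-KD members. It was not seen in 298 of 623 Ctrl and 497 of 794 Tim3-KD members, and reached 564 and 768 UMIs in single cells. The 5% of members with the most Saa3 held 37.3% of its UMIs in Ctrl and 54.4% in Tim3-KD. Mt1 was not seen in 84 Ctrl and 272 Tim3-KD members, with medians of 9 and 3 UMIs. Thinned to 1500 UMIs, Saa3 was seen in 43.5% of Ctrl and 29.7% of Tim3-KD members against 0.952% and 1.23% of B cells, and Mt1 in 70.3% and 49.9% of members against 2.86% and 3.17% of B cells.

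Tim3-KD and Ctrl members were compared to ask how this neutrophil state differed with Tim3 in the tumor cells. Of 1265 genes with 100 or more UMIs summed over members of both libraries, 57 were 2-fold or more higher in Tim3-KD (4.51%) and 45 were lower (3.56%). The median of all genes was -0.11 log2. The 8 stefin genes were none of them past 2-fold, with ratios from 0.793 for Stfa3 (0.773 to 0.814) to 1.58 for Csta2 (1.44 to 1.73). In stefin-low cells 4.73% of 1459 genes were higher and 3.36% lower.

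Interferon-stimulated genes were the group that stood higher in Tim3-KD members. Of 17 tested, 10 were past 2-fold higher, beside 4.51% of all genes, and none lower, beside 3.56%. The list median was 1.34 log2, against -0.11 for all genes. Ifit1, which binds viral RNA, was at 18.9 UPM (15.3 to 23.0) in Ctrl and 71.1 (64.8 to 77.9) in Tim3-KD. Ifi27l2a was at 165 and 616 UPM, a ratio of 3.73 (3.47 to 4.03). Isg15 was at 181 and 460 UPM, and Irf7, a transcription factor of the interferon response, at 40.5 and 117. Oasl2, Slfn5, Gbp2, Ifit3b, Igtp and Oasl1 were the others past 2-fold, with ratios from 2.22 to 4.02. At least Ifit1 and Oasl2 had under 100 UMIs in Ctrl members and reached the minimum only with the Tim3-KD library, where they were high.

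The Ctrl macrometastasis library was the low one for these genes. In cells of the same rule, Ifit1 was at 64.0 UPM in Ctrl and 68.9 in Tim3-KD micrometastasis, and at 70.4 in adjacent Ctrl. Oasl2 was at 42.6, 42.6 and 35.7 UPM in these libraries, against 9.82 in Ctrl members. Within micrometastasis none of 16 genes of the list was past 2-fold higher, beside 3.62% of all genes. The list median there was -0.01 log2, against -0.02 for all genes. In stefin-low cells of macrometastasis 4 of the 17 were past 2-fold, beside 4.73% of all genes. The list median was 0.83 log2, against -0.12 for all genes. At least 1 UMI of the list was in 94.1% of Ctrl and 94.7% of Tim3-KD members. Medians were 4 and 9 UMIs, and the upper quartile was 10 and 30. The 5% of members with the most held 35.2% of these UMIs in Ctrl and 27.9% in Tim3-KD.

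Outside the interferon list, G0s2, an inhibitor of triglyceride breakdown and a gene of the rule, was at 1049 UPM in Ctrl and 3736 in Tim3-KD members. Cxcr1, a receptor for ELR chemokines, was at 9.82 and 42.9 UPM, a ratio of 4.37 (3.22 to 6.03). Of 19 cytokine and chemokine genes tested, 3 were past 2-fold higher, beside 4.51% of all genes, and 1 lower, beside 3.56%. Their median was -0.01 log2, against -0.11 for all genes. Prok2, a secreted factor of granulocytes, was at 101 and 320 UPM, and Osm, a cytokine of the interleukin 6 family, at 74.9 and 228. In the micrometastasis libraries and adjacent Ctrl, Prok2 was at 530, 338 and 475 UPM. Cxcl3 was at 83.7 and 197 UPM, although reads of Cxcl2 and Cxcl3 are partly counted as 1 joint feature. Rufy4, Snai1, Rhoc and Prr5l completed the 10 highest genes, with Oasl2, Ifit1, Slfn5, Ifi27l2a, G0s2 and Cxcr1. Of these 10, Rufy4, Snai1, Rhoc, Prr5l, Oasl2, Ifit1 and Cxcr1 had under 100 UMIs in Ctrl members. They reached the minimum only with the Tim3-KD library, where they were high, so a difference was favoured in advance and their rank is a description.

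**Figure D3:**
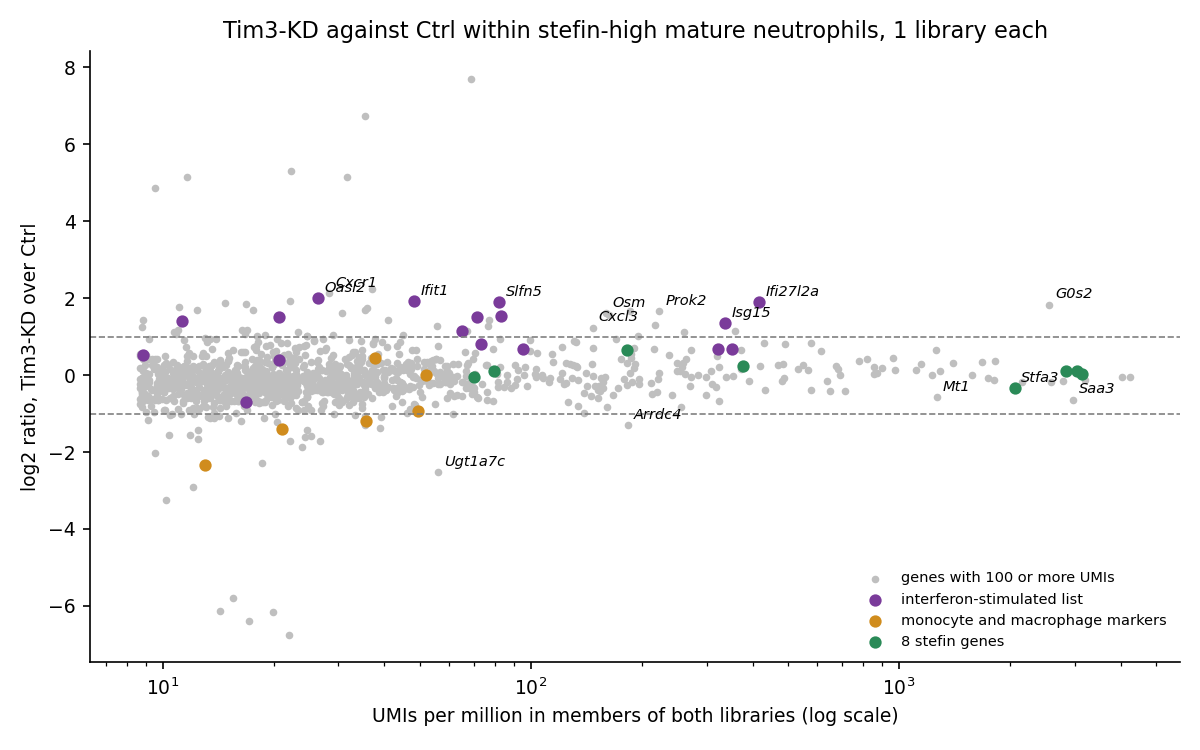
log2 ratio of Tim3-KD over Ctrl within members against UPM (log scale), 1 point per gene with 100 or more UMIs and 1 library per group; dashed lines mark 2-fold. Interferon-stimulated genes (purple) lie mostly above 0, and the 8 stefin genes (green) lie between the dashed lines.

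The genes lowest in Tim3-KD members were of little abundance. Cxcl13, a B cell attracting chemokine, was at 23.4 UPM in Ctrl and 3.10 in Tim3-KD. The class II genes H2-Ea, H2-Ab1 and H2-Aa, which present antigen, were at 33.4 to 43.6 in Ctrl and 6.82 to 13.3 in Tim3-KD. Ccl5, a T cell and monocyte chemokine, was at 16.5 UPM in Ctrl and 4.03 in Tim3-KD. Lgmn, encoding legumain, a lysosomal protease, had a ratio of 0.304. Ugt1a7c, a glucuronosyltransferase of a family with shared exons, was at 104 and 18.1, and Gde1 at 20.2 and 6.35. Cxcl13, the class II genes, Ccl5 and Gde1 had under 100 UMIs in Tim3-KD members. They reached the minimum only with the Ctrl library, where they were high, so a difference was favoured in advance. In stefin-low cells Cxcl13 and Ccl5 lay the other way, with ratios of 2.60 and 4.75. Monocyte and macrophage markers moved with them: none of 6 tested was past 2-fold higher, the median was -1.07 log2, and C1qb and C1qc, chains of the complement component C1q, were past 2-fold lower. The 2 B cell markers tested, Ighm and Igkc, were past 2-fold lower as well, with a median of -1.57 log2. The part of either cell type in the class II values was not tested. Without cells with 2 or more UMIs of monocyte genes, 27 genes were lower and 57 higher. Of the lower genes named in this paragraph, Ugt1a7c, Gde1, Ighm and Igkc were then still called past 2-fold lower. Cxcl13, H2-Ea, H2-Ab1, H2-Aa, Ccl5, Lgmn, C1qb and C1qc were not. Of all 45 lower genes, 36 still reached the minimum without these cells.

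Hmga1, the lowest in rank, was at 34.4 and 0.620 UPM, but its reads were divided over features in different ways. A joint feature of Hmga1 and Hmga1b held 0 UMIs in Ctrl and 110 in Tim3-KD members, and both features together were at 34.4 and 17.7 UPM. Of the 2643 features of the macrometastasis matrix, 10 were at 0 in 1 library and at 100 or more UMIs in the other, and all 10 name several genes.

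Other genes at higher level were lower in Tim3-KD without passing 2-fold. Saa3 had a ratio of 0.642 (0.629 to 0.656) and Mt1 of 0.671 (0.650 to 0.693). Tnf, encoding tumor necrosis factor, was at 193 and 97.3 UPM, a ratio of 0.504 (0.456 to 0.558). Arrdc4, an arrestin family gene, did pass 2-fold, with 275 and 111 UPM. In stefin-low cells Saa3, Mt1, Tnf and Arrdc4 had ratios of 0.617, 0.666, 0.515 and 0.369.

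The last comparison set members against cells of the same rule at day 3. Scores were scaled within each stage, so the thresholds do not mark equal UMI contents: the micrometastasis cells held more Stfa2, 6588 UPM in Ctrl and 5022 in Tim3-KD. They also held more transcripts of precursors, although below the same threshold. Ltf was at 1139 and 1787 UPM there and at 109 and 89.1 in members, and Cebpe, a transcription factor of granule formation, at 38.2 and 75.7 against 2.95 and 3.41. At least 1 UMI of Cebpe, Fcnb, Ube2c, Top2a or Birc5 was in 94 of 723 and 180 of 1061 micrometastasis cells, and in 20 of 623 and 34 of 794 members.

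Of 881 genes with 100 or more UMIs summed over each pair, 168 were 2-fold or more higher in macrometastasis in both pairs (19.1%) and 24 were lower (2.72%). The median of all genes was 0.73 log2 in the Ctrl and 0.71 in the Tim3-KD pair. Centred on a trimmed mean, 33 were higher and 61 lower, so the split depends on this scaling. Values below are to be read against that median.

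The metallothionein genes Mt1 and Mt2 and the arrestin family gene Arrdc4 were the 3 highest. Mt1 was at 1552 UPM in Ctrl and 1042 in Tim3-KD members, against 86.4 and 76.5 in micrometastasis and 30.9 in adjacent Ctrl. The ratio was 18.0 (16.6 to 19.6) and 13.6 (12.7 to 14.6). Mt2, its close relative, was at 19.8 and 24.2 UPM against 0.142 (1 UMI) and 1.83. In the Ctrl pair Mt2 reached the minimum through the members, where it was high, so it had to differ there. Unlike Mt1 and Arrdc4, it was not among the genes still called without cells with monocyte genes. Arrdc4 was at 275 and 111 UPM against 20.7 and 7.41. Without cells holding UMIs of the precursor and division genes, the log2 ratio of Mt1 was 3.92 and 3.44, and that of Arrdc4 in the Tim3-KD pair 3.66.

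Rgcc, Jmy, Zfp52, Bcl2l15 and F10 were among the 10 highest as well, with F10, encoding coagulation factor X, at 85.5 and 42.5 UPM against 3.68 and 9.57. The other 2 were Alb and Apoc1, and Alb, the main product of hepatocytes, was at 88.2 and 58.7 UPM against 8.92 and 12.9. Of 3 hepatocyte markers tested 2 were past 2-fold higher in macrometastasis, and of 3 Kupffer markers 2, beside 19.1% of all genes. Of 6 monocyte and macrophage markers 3 were higher, C1qa, C1qb and C1qc, beside the same 19.1%. Another 2, F13a1 and Ly6c2, were lower, beside 2.72% of all genes. The part of RNA from other cells in the higher genes was not tested. Without cells with monocyte genes 143 genes were higher, 137 of them among the 168.

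Of 18 cytokine and chemokine genes 5 were past 2-fold higher, beside 19.1% of all genes, and none lower, with medians of 0.86 and 1.23 log2. A ratio above 1 in both pairs was seen in 11 of the 18, against 70.5% of all genes. Ccl3, a chemokine for monocytes and neutrophils, was at 498 and 379 UPM in members against 81.5 and 105. Csf1, the macrophage growth factor, was at 416 and 373 against 125 and 141. Cxcl1, Il1a and Tnfsf14 were the other 3. All 11 genes of the NF-κB feedback list had a ratio above 1 in both pairs, and Tnfaip3 and Gadd45b were past 2-fold. Their medians of 0.86 and 0.90 log2 lay close to those of all genes. Of 14 immediate early and stress genes 5 were past 2-fold higher, beside the same 19.1%, Atf3, Egr3, Fosb, Hspa1a and (not without cells with monocyte genes) Klf4, and the medians were 0.95 and 1.20 log2. Hspa1a, an inducible chaperone, was at 39.7 and 34.4 UPM against 6.65 and 10.1. The interferon list had no gene past 2-fold in both pairs, with medians of -1.19 log2 in the Ctrl and 0.05 in the Tim3-KD pair, both below those of all genes. None of the 15 tested had a ratio above 1 in both pairs, and 6 had a ratio below 1 in both, against 10.6% of all genes.

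Lower in macrometastasis were Ube2c, which acts in exit from mitosis, with 2.55 and 1.08 UPM against 38.9 and 80.2, and Birc5, H1f5, Pclaf, Top2a, Mki67, Stmn1, H4c4, Cebpe and Ltf, the others of the 10 lowest. All of these but Ltf had under 100 UMIs in members of each library and reached the minimum through the micrometastasis cells, so they had to differ, and no count over them is given. Without the cells holding Cebpe, Fcnb, Ube2c, Top2a or Birc5, which removes some of these genes by construction, 14 genes were lower, 8 of them among the 24, and the log2 ratio of Ltf in the Ctrl pair was -2.84. Ly6g was at 141 and 230 UPM in members against 653 and 666, and Cd177 at 277 and 269 against 592 and 680. Among the stefins, Cstdc4 had the ratios 0.394 and 0.534, and Stfa3 0.802 and 0.715. On the scale as given none of the 8 stefin genes was past 2-fold lower in both pairs, and centred on the trimmed mean 5 were: Stfa2, Stfa3, Stfa2l1, Cstdc4 and Csta2. Ngp, Camp and Lcn2 were not analysed here for micrometastasis.

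**Figure D4:**
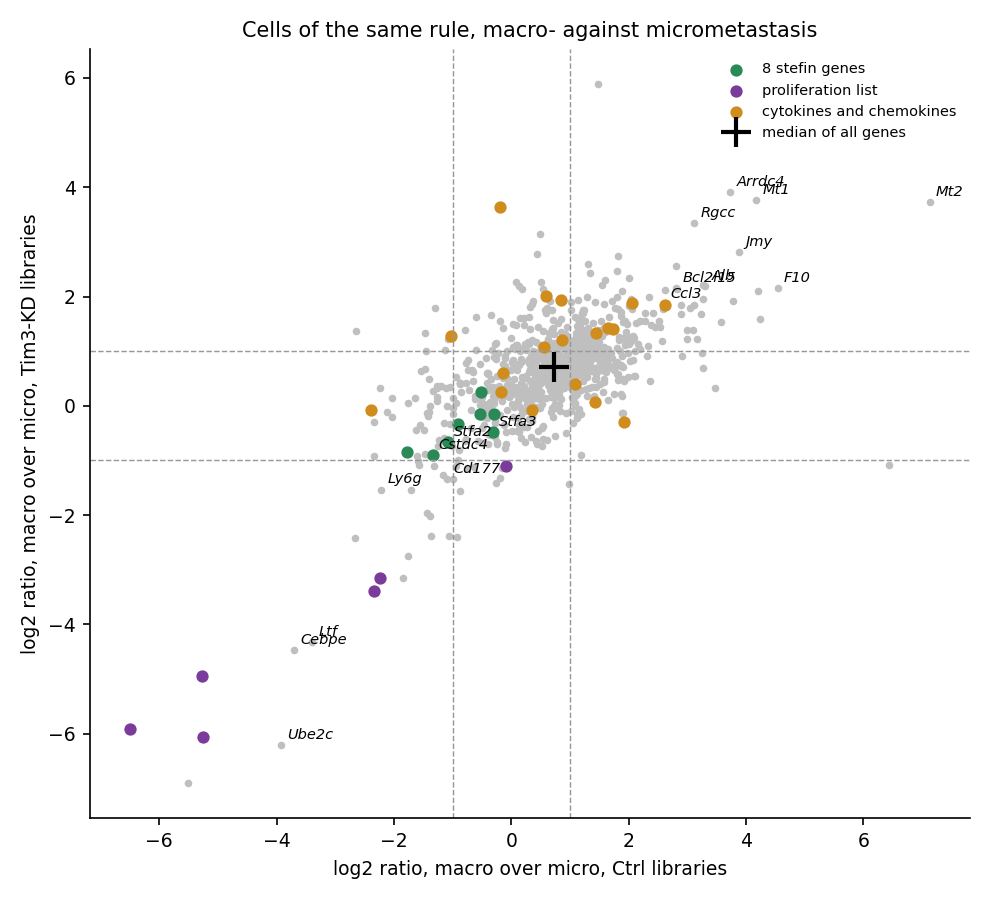
log2 ratio of macrometastasis over micrometastasis in cells of the same rule, Ctrl libraries (horizontal) against Tim3-KD libraries (vertical), 1 point per gene; dashed lines mark 2-fold and the cross marks the median of all genes, 0.73 and 0.71. Mt1, Mt2 and Arrdc4 lie at the upper right, and proliferation genes (purple), Ltf and Cebpe at the lower left.

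The direction of the Tim3-KD difference was not shared by both stages for several genes. G0s2 was at 1049 and 3736 UPM in Ctrl and Tim3-KD members, and at 2597 and 1082 in the cells of micrometastasis. Snai1, a transcriptional repressor, was at 8.64 and 32.9 UPM against 54.1 and 12.7. Cxcr2, the main neutrophil chemokine receptor and a gene of the rule, was at 470 and 728 UPM against 741 and 477. For these genes the Ctrl library was the lower one at day 12 and the higher one at day 3, and the adjacent Ctrl library was at 1239, 10.9 and 546 UPM.

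**Figure D5:**
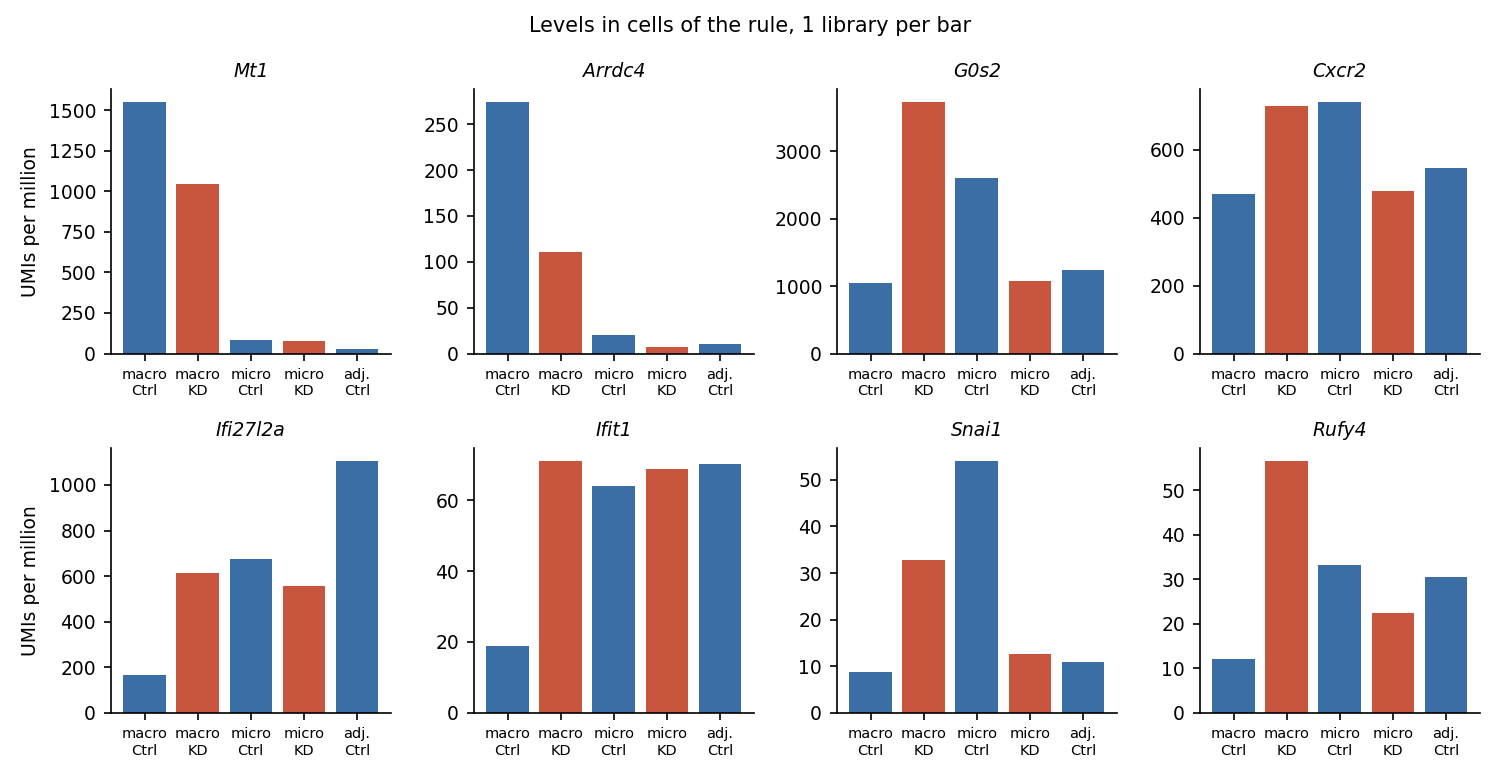
UPM of 8 genes in cells of the rule, 1 bar per library from 0 (Ctrl blue, Tim3-KD red; no replicates, so no error bars). Mt1 and Arrdc4 stand out in both macrometastasis libraries, Ifit1 and Ifi27l2a are low in macrometastasis Ctrl, and G0s2, Cxcr2, Snai1 and Rufy4 go opposite ways at the 2 stages.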

How the data were processed

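Deposited values were scores: per the study's methods, reads were trimmed (Trim Galore 0.4.3), aligned (STAR 2.7.7a, GRCm38) and counted as UMIs over exons and introns. The authors filtered cells on UMIs, genes and mitochondrial share, removed doublets with scrublet and chose variable genes. That the deposited scores are log values scaled per stage, over both libraries together, with total UMIs regressed out and a cap of 10, was read from the values. Each score was inverted to UMIs and each cell's total. Of detected macrometastasis values 99.997% came out whole (within 0.05), and 0.153% were at the cap. On 3000 cells simulated with the same formula from the recovered UMIs, every UMI count below the cap was recovered. This checks the inversion, not whether the deposited scores were made by that formula. At the cap UMIs are a lower bound. Genes outside the matrices were not analysed here, and 1 gene of the named set is not reported here.

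UMIs were summed per library and divided by the cells' total UMIs. A ratio has an exact conditional interval. A side at 0 was set to 3 UMIs, which affected 7 genes between Tim3-KD and Ctrl members. Members, lists and tests were chosen with earlier results of these data known. Named genes were the rule genes, fixed lists, the 15 most abundant genes, and the 10 highest and 10 lowest ratios per comparison (the smaller of 2 ratios). Mitochondrial, ribosomal, haemoglobin and receptor-segment genes, Xist, and features without a gene symbol of their own were left out. Alternatives changed thresholds, depth, scaling, minimums and cells. Python 3 with numpy and scipy was used.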

Additional observations from a re-analysis of the deposited data

Results flagged for a closer look

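Of 17 named genes compared between Tim3-KD and Ctrl at both stages, 9 went opposite ways in cells of the rule, with both counting intervals excluding 1. Of all 856 genes with enough UMIs at both stages this held for 20.9%. The named genes were chosen for their ratio in macrometastasis or belong to the rule, so their number is a description. Rufy4, Snai1, Rhoc and Prr5l had under 100 UMIs in Ctrl members of macrometastasis. The difference between stages was not tested, since each group is 1 library, and the stages were scaled separately, so the rule takes different cells at each. The log2 ratio in macrometastasis and in micrometastasis was 2.24 and -0.57 for Rufy4, 1.93 and -2.10 for Snai1, and 1.90 and -0.28 for Ifi27l2a. It was 1.88 and -0.69 for Rhoc, 1.83 and -1.26 for G0s2, and 1.75 and -0.43 for Prr5l. Among other genes of the rule it was 0.44 and -0.19 for Csf3r, 0.63 and -0.64 for Cxcr2, and 0.31 and -0.13 for Hdc.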

How the results depend on the processing

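No paired analysis was possible because each group is 1 library, so no library could be left out either. Limits: 1 pool of mice per group, counting intervals only, and variable genes only. Under the alternatives no called difference of a named gene or share reversed. Of 124 values of the main comparisons 97 stayed within 1.5 times the reported count or within the interval of the difference. For single genes and the interferon count 1137 values stayed within such limits and 257 moved further. The difference in share of members moved to 3.83 points without cells with monocyte genes and to 4.96 points in cells of 4000 to 10000 UMIs. Its interval included 0 at a stefin threshold of 0.7 (0.976 points), without cells with markers of other types (2.24 points) and without cells with the rarer markers (0.473 points). Settings that remove cells by markers, monocyte genes or UMIs also take them from the total, so they give a different share. Between Tim3-KD and Ctrl, genes higher moved from 57 to 21 without cells with markers of other types (which kept 154 and 224 members) and to 33 at 300 UMIs. Genes lower moved from 45 to 5 without those cells, to 24 with only the rarer markers, to 27 without cells with monocyte genes, to 18 in cells of 4000 to 10000 UMIs, and to 80 and 11 at 50 and 300 UMIs. The 10 interferon genes were 8 to 11 under the others and 5 of 8 without cells with markers of other types. Genes lower in stefin-high cells moved from 48 to 28 at a maturity threshold of 0.6, to 5 and 15 without cells with markers, to 3 without monocyte genes, to 1 in cells of 4000 to 10000 UMIs, and to 98 and 20 at 50 and 300 UMIs. Between stages, genes higher moved from 168 to 21 without cells with markers, to 108 without precursor genes, to 39 in cells of 4000 to 10000 UMIs, to 33 when centred, and to 62 at 300 UMIs. Genes lower moved from 24 to 13, 14, 13, 61 and 12. Fewer genes reach the minimum where cells are removed. Settings on monocyte, azurophil, precursor and rarer marker genes, the range of UMIs, and features of several genes were chosen after seeing the data.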
